A study of Lepidium sativum with 107 samples.

Results

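The cruciferins and the 2S albumins are the main seed storage proteins of the mustard family. Their transcript levels are described here for garden cress (Lepidium sativum) from the dry seed through germination. The members were 8 Arabidopsis locus codes: the cruciferin genes CRA1 (AT5G44120), CRB (AT1G03880) and CRC (AT4G28520), and the albumin genes SESA1 (AT4G27140), SESA2 (AT4G27150), SESA3 (AT4G27160), SESA4 (AT4G27170) and SESA5 (AT5G54740). A member was taken where the deposited expression table had a probe set filed under its locus code. This gave 7 of the 8 loci, 3 cruciferins and 4 albumins, among 13895 probe sets, and SESA4 was not analysed here.

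Cruciferins are 11S globulins, which assemble into hexamers. The 2S albumins are small, sulphur-rich, disulphide-bonded proteins. Both are made during seed filling under the transcription factors of the maturation programme, cut by vacuolar processing enzymes and packed into protein storage vacuoles. Dry seeds still hold their transcripts, and after imbibition the proteins are broken down by proteases to feed the seedling. In Arabidopsis SESA1 to SESA4 lie in tandem and are much alike in sequence, while SESA5 lies apart and differs more. Values of SESA1 to SESA3 are therefore uncertain as single-gene values, because a transcript of one copy can bind the probes of another.

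RNA was measured on 1-colour expression arrays, 1 per sample, in 27 groups. All seeds were of cress labelled FR14. For the imbibed groups they were sown on wetted filter disks at 24 °C in continuous light and cut by hand into 4 compartments. These were the micropylar endosperm (CAP, the tissue that covers the radicle tip), the non-micropylar endosperm (NME), the radicle with lower hypocotyl (RAD) and the cotyledons (COT). CAP and RAD were taken at 1, 3, 5, 7, 10, 13 and 16 h after sowing. At 7 h they came separately from seeds with an intact and with a ruptured testa, and at 16 h from seeds with an intact and with a ruptured endosperm, which makes 9 stages. NME and COT were taken at 3, 7 and 13 h. The 7 h cotyledons came from seeds with an intact testa; the 7 h NME samples are labelled so in their titles, but their source names give no rupture state. Dry seed was sampled as whole seeds (DRY), as the radicle end with its cap (DRYRC), and as the opposite end (DRYNMC), which holds the non-micropylar endosperm and cotyledon tissue in part. No genotype or chemical treatment differed between groups. Each imbibed sample pooled 100 organs (50 for cotyledons), while no pool size is given for the dry seed samples. In all, 26 groups had 4 arrays and DRYNMC had 3. Nothing in the labels says that replicates came from separate sowings, so the spread behind each p-value may be technical.

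Levels are log2 RMA values, in which a difference of 1 is a doubling of probe brightness. Array medians lay between 4.04 and 4.17 and single values between 2.54 and 13.0. Each group's median correlation between its arrays over all probe sets was 0.947 to 0.986. RMA values carry no test against background, so a limit of 3.59 was set, the 25th percentile of the group means; means below it are not clearly above background. A change to or from such a level is a lower bound and is written as at least. Each level is followed by its SD over n = 4 arrays (n = 3 in DRYNMC) and each change by its limma standard error. A member is said to rise or fall where limma's p, adjusted by the Benjamini-Hochberg method over all 13895 probe sets, was under 0.05. The cress RNA bound probes filed under Arabidopsis codes, and the probe sequences were not used here. In bulk tissue, fewer cells of a type and less RNA per cell cannot be told apart, and a level is relative to the other transcripts on the array.

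CRA1 and SESA5 were the members with the widest range over the 27 groups, and both had their brightest groups in dry or newly imbibed seed and were under the brightness limit in intact CAP and RAD at 16 h. SESA5 was dim in the dry cotyledon end, at 3.67 in DRYNMC. CRA1 group means spanned 5.22 log2 units, with 8.44 ± 0.10 in DRYRC as the highest and 3.22 ± 0.10 in CAP at 16 h after endosperm rupture as the lowest. SESA5 group means spanned 4.00, with 6.79 ± 0.44 in RAD at 3 h as the highest and 2.80 ± 0.07 in intact RAD at 16 h as the lowest. CRC spanned 2.52, with 5.58 ± 1.37 in DRY as the highest. SESA1 spanned 1.81, CRB 1.27 and SESA3 0.99, each with DRY as the highest group. SESA2 spanned 0.29 and stayed under the brightness limit in every array, at 3.33 or less. The limit was exceeded by CRA1 in 15 of the 27 groups, SESA1 in 14, SESA5 in 12, CRC in 7, SESA3 in 2 and CRB in 1. Even the brightest member array, CRA1 at 8.83 in DRY, lay below the highest value on each array, which was 11.9 to 13.0.

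**Figure D1:**
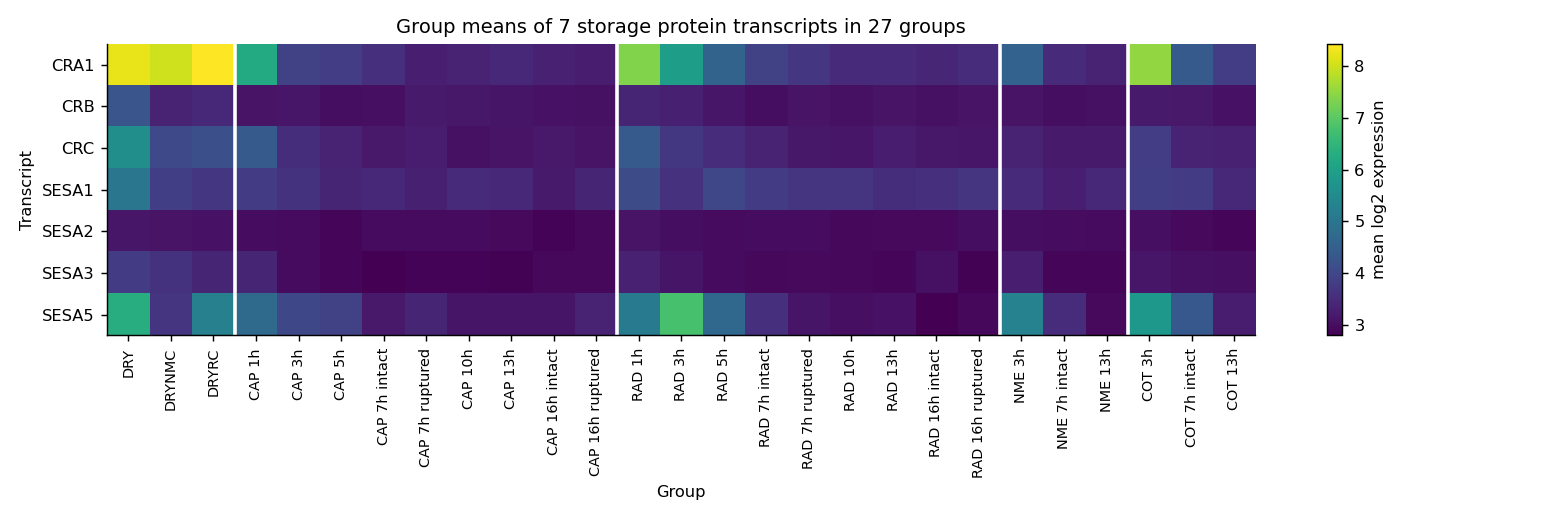
Mean log2 RMA level of the 7 members (rows) in the 27 groups (columns), as colour; white lines part the dry seed groups and the tissues. CRA1 is brightest in DRYRC and SESA5 in RAD at 3 h, while SESA2 stays between 2.86 and 3.14 throughout.

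When the groups are ordered by a member's level, neighbours mostly overlapped in their arrays. Of 26 neighbouring pairs per member, all overlapped for CRB, CRC, SESA1, SESA2 and SESA3, and 25 overlapped for CRA1 and SESA5. The same count was not made over all probe sets, so it is not read as a trait of the members. For CRA1 the break lay between RAD at 3 h, with a lowest array of 5.27, and RAD at 5 h, with a highest array of 4.88. The 7 groups above that break were the 3 dry seed groups, COT at 3 h, RAD at 1 h, CAP at 1 h and RAD at 3 h. For SESA5 the break, in position 14, lay between NME at 7 h, with a lowest array of 3.454, and CAP at 7 h with ruptured testa, with a highest array of 3.447. All groups below the SESA5 break had means under the brightness limit. Above the break, RAD at 7 h with intact testa (3.55) and NME at 7 h (3.51) also had means under that limit. The break itself lay under the limit.

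CRA1, which encodes a cruciferin of the A type, fell early and by the most in both the micropylar endosperm and the radicle. In CAP its arrays read 3.14, 3.41, 3.42 and 3.27 in intact seeds at 16 h, against 5.82, 7.22, 5.52 and 6.45 at 1 h. All 16 h arrays lay below all 1 h arrays. The change was -2.94 ± 0.24, at least 7.69-fold lower (limma adjusted p = 4.63e-19). In RAD the CRA1 arrays read 3.20, 3.51, 3.59 and 3.29 in intact seeds at 16 h, against 7.54, 7.23, 7.17 and 7.49 at 1 h. Here too the groups did not overlap. The change was -3.96 ± 0.24, at least 15.6-fold lower (limma adjusted p = 4.61e-26).

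In CAP the called fall of CRA1 lay in the step to 3 h, and in RAD in the steps to 3 h and to 5 h. Along the CAP course its mean level was 6.25 ± 0.75 at 1 h, 3.89 ± 0.07 at 3 h, 3.82 ± 0.15 at 5 h and 3.58 ± 0.28 at 7 h with intact testa. The step to 3 h took most of the fall, -2.36 ± 0.24 against 1 h (limma adjusted p = 4.69e-14), and no later CAP step passed. Along the RAD course the CRA1 mean level was 7.36 ± 0.18 at 1 h, 5.95 ± 0.87 at 3 h, 4.58 ± 0.35 at 5 h and 3.91 ± 0.41 at 7 h with intact testa. The RAD steps to 3 h and to 5 h were of like size, -1.41 ± 0.24 and -1.37 ± 0.24 (limma adjusted p = 2.38e-06 and 4.10e-05). Tested directly, the change by 3 h differed between CAP and RAD by -0.95 ± 0.34, which did not pass (limma adjusted p = 0.0542, where 10.1% of all probe sets differed). This test was added after the levels were seen; it passed without the whole dry seed arrays (adjusted p = 0.0487) and under 6 other settings. The step to 5 h was not called when only the arrays compared were fitted (adjusted p = 0.124). At 3 h the RAD arrays read 7.16, 5.27, 5.35 and 6.01, so replicate 1 was still near the 1 h level. Over the whole course CRA1 fell by less in CAP than in RAD, with a difference of the changes of 1.02 ± 0.34 (limma adjusted p = 0.0260). CRA1 was the 1 of 7 members whose courses differed, where 16.2% of all probe sets did. The difference rests on end levels below the brightness limit and was lost in the fit of the compared arrays alone (adjusted p = 0.0791). It was also lost without replicate 1 or 3 of CAP at 1 h, replicate 1 of RAD at 1 h, replicate 3 of intact CAP at 16 h or replicate 1 of intact RAD at 16 h (adjusted p = 0.0510 to 0.118). Leaving replicate 1, 3 or 4 out of all groups lost it too (limma adjusted p = 0.114 to 0.159).

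**Figure D2:**
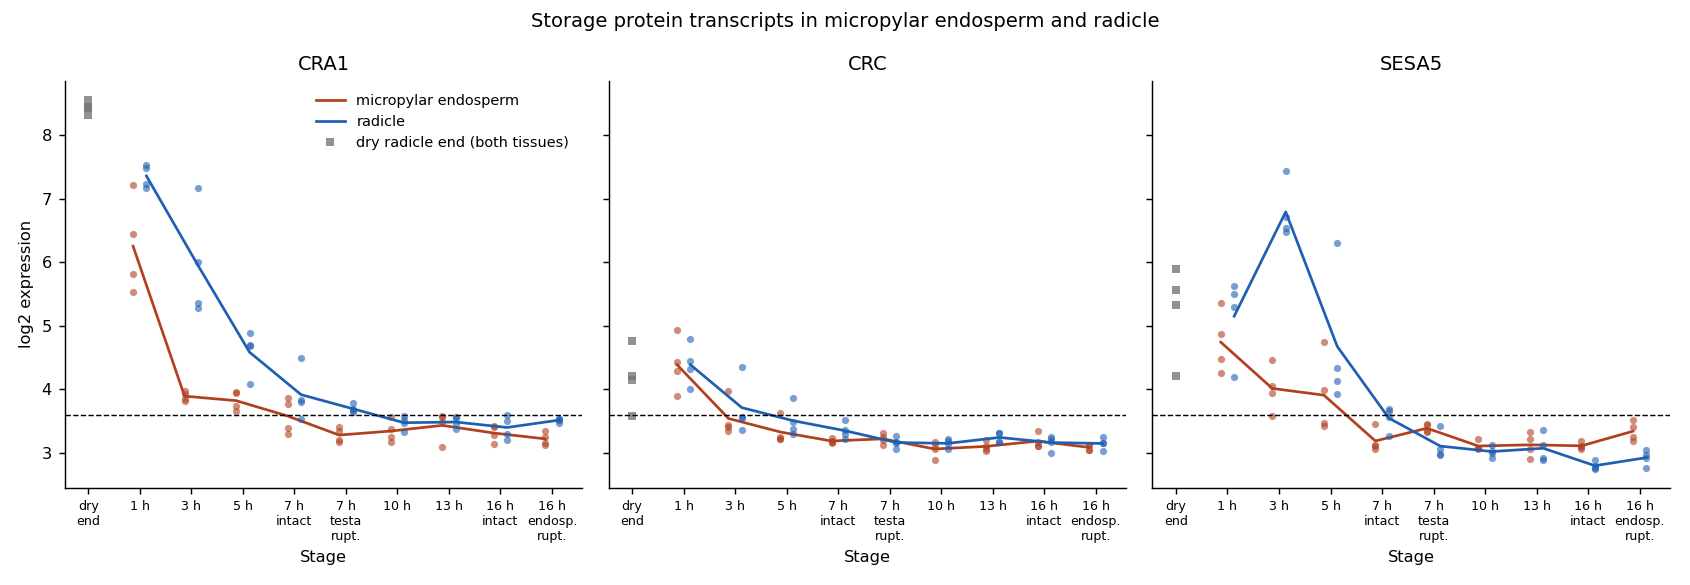
Log2 RMA level of CRA1, CRC and SESA5 by stage in CAP and RAD; points are single arrays, lines join group means, grey squares are the DRYRC arrays, and the dashed line is the brightness limit of 3.59. CRA1 reaches 3.89 in CAP at 3 h while RAD is at 5.95, and SESA5 in RAD peaks at 6.79 at 3 h.

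CRC, which encodes a cruciferin of the C type, fell in both tissues. In CAP its arrays read 3.10, 3.35, 3.11 and 3.17 in intact seeds at 16 h, against 4.93, 4.29, 3.90 and 4.43 at 1 h. In RAD they read 3.00, 3.17, 3.25 and 3.22 at 16 h, against 4.31, 4.79, 4.44 and 4.01 at 1 h. The groups did not overlap in either tissue. The CRC change was -1.21 ± 0.24 in CAP, at least 2.31-fold lower (limma adjusted p = 1.08e-05), and -1.23 ± 0.24 in RAD, at least 2.34-fold lower (limma adjusted p = 9.63e-06). All CRC arrays at 16 h were under the brightness limit, so the sizes of both falls are lower bounds. Most of the CRC fall came by 3 h: -0.85 ± 0.24 in CAP (limma adjusted p = 0.00268) and -0.68 ± 0.24 in RAD (limma adjusted p = 0.0263). The CAP step was lost with replicate 1 left out of all groups (-0.60, adjusted p = 0.0885). The RAD step was lost in the fit of the compared arrays alone (adjusted p = 0.0901) and without replicate 2 or 3 at 1 h or replicate 2, 3 or 4 at 3 h (adjusted p = 0.0557 to 0.117). CRB, which encodes a cruciferin of the B type, stayed under the brightness limit in all imbibed groups, with means of 3.01 to 3.39. Its 16 h against 1 h changes were -0.03 ± 0.15 in CAP and -0.34 ± 0.15 in RAD, and neither passed (limma adjusted p = 0.885 and 0.0557).

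SESA5, a 2S albumin, did not simply decline in the radicle but rose first. Its RAD mean level was 5.15 ± 0.66 at 1 h, 6.79 ± 0.44 at 3 h, 4.67 ± 1.10 at 5 h, 3.55 ± 0.19 at 7 h with intact testa and 2.80 ± 0.07 in intact seeds at 16 h. The arrays behind the rise were 7.44, 6.48, 6.72 and 6.54 at 3 h, against 5.30, 4.19, 5.50 and 5.62 at 1 h. Every 3 h array lay above every 1 h array. The step was 1.64 ± 0.36, or 3.12-fold higher (limma adjusted p = 2.20e-04), the one upward step among the members' passing steps. At 5 h the SESA5 arrays read 6.30, 4.13, 4.33 and 3.93, with replicate 1 near the 3 h level, and the step to 5 h was -2.12 ± 0.36 (limma adjusted p = 2.07e-05). That step too missed the threshold with only the compared arrays (adjusted p = 0.0700).

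In CAP, SESA5 showed no such rise. Its mean level was 4.74 ± 0.49 at 1 h, 4.01 ± 0.36 at 3 h, 3.91 ± 0.61 at 5 h and 3.18 ± 0.18 at 7 h with intact testa. The arrays at 3 h read 3.58, 4.06, 3.94 and 4.47, against 5.36, 4.87, 4.47 and 4.26 at 1 h. The step of -0.73 ± 0.36 did not pass (limma adjusted p = 0.112). It passed under array weights (adjusted p = 0.0438), with only the compared arrays (adjusted p = 0.0332) and without the whole dry seed arrays (adjusted p = 0.0422). Tested in the same way as for CRA1, the change of SESA5 by 3 h differed between CAP and RAD by -2.37 ± 0.50 (limma adjusted p = 5.86e-04). Over the whole course SESA5 fell in both tissues, by -1.63 ± 0.36 in CAP, at least 3.10-fold (limma adjusted p = 7.90e-05), and by -2.35 ± 0.36 in RAD, at least 5.11-fold (limma adjusted p = 4.23e-08).

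The tandem albumins changed little, and mostly within the dim range. SESA1 read 3.55, 3.00, 3.07 and 3.19 in intact CAP at 16 h, against 3.78, 3.61, 4.24 and 3.59 at 1 h, a change of -0.60 ± 0.25 (limma adjusted p = 0.0446). The SESA1 call was lost under 2 other scalings (adjusted p = 0.0515 and 0.0549) and without replicate 1 or 3 at 1 h or replicate 2, 3 or 4 at 16 h (adjusted p = 0.0662 to 0.177). With replicate 1, 2 or 3 left out of all groups the SESA1 call was also lost (limma adjusted p = 0.0592 to 0.296). In RAD the SESA1 change was -0.53 ± 0.25 and did not pass (limma adjusted p = 0.0809), with overlapping arrays. SESA3 fell in CAP by -0.47 ± 0.13 (limma adjusted p = 0.00160), with 2.88, 2.90, 2.92 and 2.95 at 16 h, against 3.29, 3.06, 3.72 and 3.48 at 1 h; its RAD change of -0.27 ± 0.13 did not pass (limma adjusted p = 0.0838). SESA2 moved by -0.13 ± 0.07 in CAP (limma adjusted p = 0.122) and by -0.16 ± 0.07 in RAD (limma adjusted p = 0.0429), both between levels under the limit. The RAD call for SESA2 was lost under each of the 3 other scalings tried (adjusted p = 0.0989 to 0.288), under array weights (adjusted p = 0.0874), with only the compared arrays (adjusted p = 0.341) and without replicate 3 or 4 at 1 h or 2, 3 or 4 at 16 h (adjusted p = 0.0770 to 0.174). Leaving replicate 2, 3 or 4 out of all groups lost the SESA2 call too (limma adjusted p = 0.0763 to 0.325).

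In all, 5 of the 7 members fell in CAP, where 23.5% of all probe sets fell, and 4 of 7 fell in RAD, where 23.3% did. The CAP count includes SESA3, with both means under the brightness limit, and SESA1, whose call was lost in several refits. The RAD count includes SESA2, also with both means under the limit. No member rose, while 20.4% of probe sets rose in CAP and 18.5% in RAD. The median change of the members was -0.60 in CAP and -0.53 in RAD, against -0.03 and -0.07 over all probe sets. Among 20 successive stages in the 4 tissues, 14 of 140 member steps passed, 13 downward and 1 upward, and they fell in 6 stages. Those were the CAP step to 3 h (3 members fell, 17.6% of probe sets fell), the RAD steps to 3 h (2 fell, 12.9%; 1 rose, 9.93%) and to 5 h (2 fell, 2.88%), the NME step to 7 h (3 fell, 15.9%), and the COT steps to 7 h (2 fell, 6.97%) and to 13 h (1 fell, 8.18%).

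**Figure D3:**
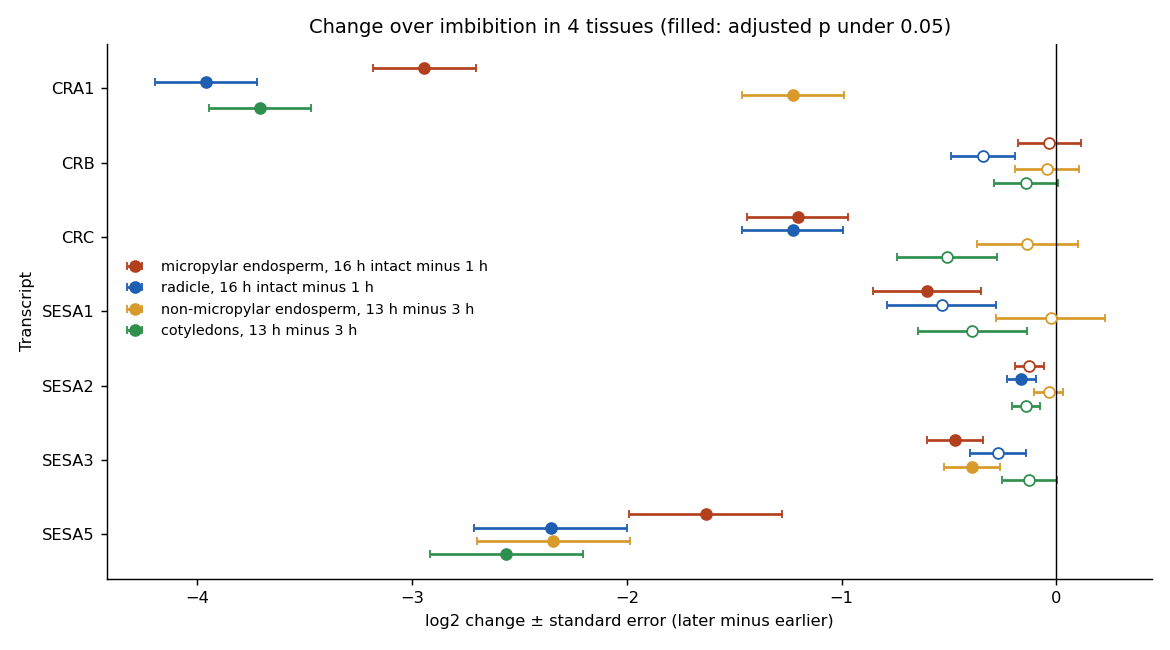
Log2 change of each member over the course in the 4 tissues, later minus earlier, as points with bars of 1 limma standard error; filled points passed at adjusted p under 0.05. CRA1 and SESA5 fall in all 4 tissues, CRC in CAP and RAD.

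In the cotyledons 2 of 7 members fell between 3 and 13 h, and 12.5% of all probe sets did. CRA1 read 3.91, 3.89, 3.77 and 3.71 in COT at 13 h, against 7.70, 7.22, 8.07 and 7.12 at 3 h. The arrays were far apart, and the change was -3.71 ± 0.24, or 13.1-fold lower (limma adjusted p = 7.58e-24). Most of it came by 7 h, where the CRA1 mean was 4.39 ± 0.39 and the step -3.14 ± 0.24 (limma adjusted p = 6.34e-19). SESA5 read 3.04, 3.48, 3.42 and 3.05 at 13 h, against 5.78, 6.09, 5.53 and 5.85 at 3 h. Its change was -2.56 ± 0.36, at least 5.91-fold lower (limma adjusted p = 9.05e-09), in steps of -1.45 ± 0.36 to 7 h and -1.11 ± 0.36 to 13 h (limma adjusted p = 0.00190 and 0.0199). The later SESA5 step missed the threshold with only the compared arrays (adjusted p = 0.0887) and without replicate 1 or 4 of COT at 13 h (adjusted p = 0.0539 and 0.0553). Leaving replicate 3, the high COT array at 7 h, out of all groups gave an adjusted p of 0.299. CRC changed by -0.51 ± 0.24 and did not pass (limma adjusted p = 0.106), although its 13 h arrays, 3.16 to 3.46, lay below its 3 h arrays, 3.60 to 4.15.

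In the non-micropylar endosperm 3 of 7 members fell between 3 and 13 h, and 19.9% of all probe sets did. CRA1 read 3.29, 3.28, 3.56 and 3.23 in NME at 13 h, against 5.46, 3.97, 4.42 and 4.41 at 3 h, a change of -1.23 ± 0.24, at least 2.34-fold (limma adjusted p = 1.08e-05). SESA5 read 3.02, 2.84, 3.01 and 2.90 at 13 h, against 5.31, 5.42, 4.40 and 6.01 at 3 h, a change of -2.34 ± 0.36, at least 5.07-fold (limma adjusted p = 3.65e-08). Neither member's groups overlapped. SESA3 fell by -0.39 ± 0.13 between levels under the limit (limma adjusted p = 0.0102). That SESA3 call was lost with replicate 2 left out of all groups (-0.34, limma adjusted p = 0.107). By 7 h the NME arrays of SESA5 read 3.45, 3.47, 3.54 and 3.56. No member passed in the step to 13 h, where 22.1% of all probe sets differed.

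**Figure D4:**
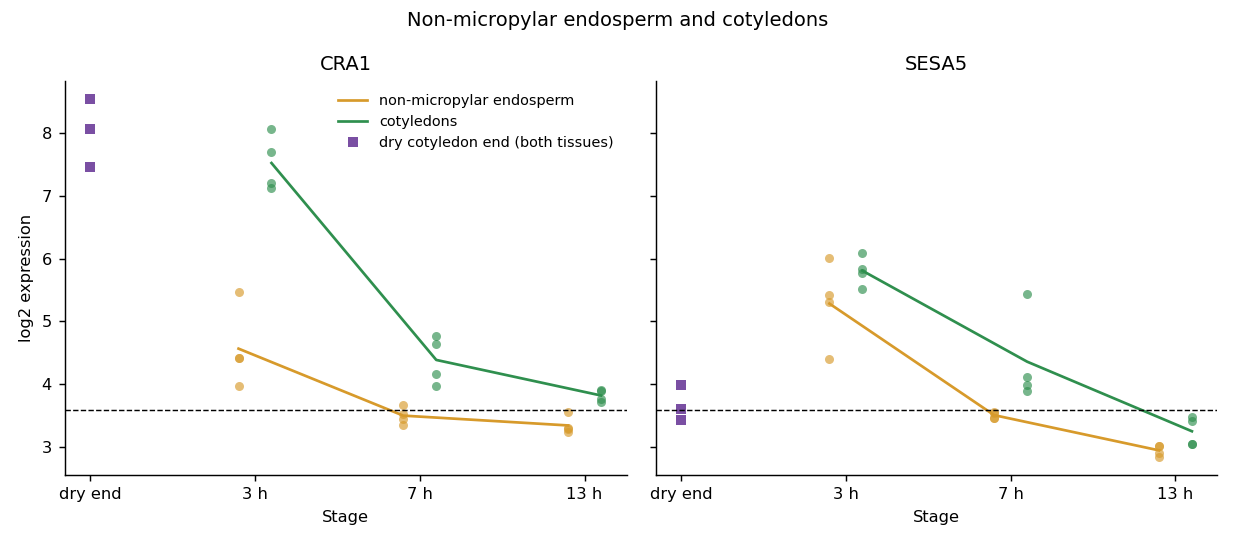
Log2 RMA level of CRA1 and SESA5 at 3, 7 and 13 h in NME and COT; points are single arrays, lines join means, purple squares are the DRYNMC arrays, and the dashed line is the brightness limit of 3.59. At 3 h CRA1 averages 4.57 in NME and 7.53 in COT, while SESA5 averages 5.29 and 5.81.

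Between tissues of the same stage, CRA1 was lower in endosperm than in the embryo part next to it. Over the mean of 9 stages CRA1 was -0.58 ± 0.08 in CAP minus RAD (limma adjusted p = 5.56e-10), SESA5 -0.35 ± 0.12 (limma adjusted p = 0.00715) and SESA1 -0.28 ± 0.08 (limma adjusted p = 0.00240). These were 3 of 7 members, and 37.2% of all probe sets were lower in CAP. CRA1 passed at 3 of the 9 stages. It was lower in CAP than in RAD by -1.11 ± 0.24 at 1 h, -2.06 ± 0.24 at 3 h and -0.76 ± 0.24 at 5 h (limma adjusted p = 5.82e-04, 2.56e-11 and 0.0134). The CRA1 call at 1 h was lost with only the compared arrays (adjusted p = 0.0552), and its arrays overlapped there; the call at 5 h was lost without replicate 1 of RAD (adjusted p = 0.0615) and with replicate 2 or 4 left out of all groups (adjusted p = 0.0672 and 0.135). SESA5 differed at 3 h alone, by -2.78 ± 0.36 or 6.88-fold (limma adjusted p = 7.96e-10). At 3 h the 4 endosperm markers measured, of 5 listed, summed to 19.7 to 22.7 log2 units in CAP arrays, against 14.1 to 15.3 in RAD arrays; the part of tissue purity in these gaps was not tested.

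The non-micropylar endosperm and the cotyledons differed in CRA1 and SESA5. Over the mean of 3 stages CRA1 was -1.44 ± 0.14 in NME minus COT (limma adjusted p = 1.76e-15) and SESA5 -0.56 ± 0.21 (limma adjusted p = 0.0201), 2 of 7 members where 23.7% of probe sets were lower. SESA1, at -0.30, did not pass (limma adjusted p = 0.0890) but did with only the compared arrays (adjusted p = 0.0184). At 3 h CRA1 averaged 4.57 ± 0.63 in NME and 7.53 ± 0.44 in COT, a difference of -2.96 ± 0.24 or 7.79-fold (limma adjusted p = 1.41e-18). At 7 h it averaged 3.50 ± 0.13 in NME and 4.39 ± 0.39 in COT, a difference of -0.89 ± 0.24, at least 1.85-fold (limma adjusted p = 0.00199). The measured fall by 7 h differed between NME and COT by 2.07 ± 0.34 (limma adjusted p = 1.82e-06, a test added after the levels were seen, in which 17.9% of all probe sets differed). The NME level at 7 h was under the brightness limit, so the NME fall is a lower bound and the size of this difference is open to that floor. SESA5 did not pass at any single stage between NME and COT, and its 3 h difference was -0.53, with a 95% interval of -1.23 to 0.18. The SESA5 call over 3 stages was lost without replicate 3 of NME at 3 h (adjusted p = 0.0621), with replicate 2 left out of all groups (adjusted p = 0.0856) and with replicate 3 left out of all groups (-0.37, adjusted p = 0.281). The cotyledon marker FIL averaged 3.51 ± 0.20 in NME and 5.10 ± 0.77 in COT at 3 h, and the endosperm marker EPR1 8.08 ± 0.42 and 4.04 ± 0.17; their part in these differences was not tested.

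Within the embryo, CRA1 was lower in the radicle than in the cotyledons, by -0.80 ± 0.14 over 3 stages (limma adjusted p = 1.07e-06), 1 of 7 members where 18.4% of probe sets were lower. The RAD minus COT difference at 3 h was -1.58 ± 0.24 (limma adjusted p = 2.02e-07). SESA5 stood the other way round at 3 h: its RAD arrays, 6.48 to 7.44, all lay above its COT arrays, 5.53 to 6.09. That difference of 0.98 ± 0.36 did not pass (limma adjusted p = 0.0537), and passed in the fit of the compared arrays alone (adjusted p = 0.0289), by quantile normalization (adjusted p = 0.0335) and without the whole dry seed arrays (adjusted p = 0.0123). By 7 h SESA5 averaged 3.55 ± 0.19 in RAD and 4.36 ± 0.72 in COT. Its change by 7 h was more negative in RAD by -1.80 ± 0.50 (limma adjusted p = 0.0382, added after the levels were seen, where 1.97% of all probe sets differed), a call lost under array weights (adjusted p = 0.0659), with only the compared arrays (adjusted p = 0.0755), and without any of replicates 1 and 3 of RAD at 3 h, 3 of COT at 3 h or 1, 3 and 4 of RAD at 7 h (adjusted p = 0.0505 to 0.0973). Within the endosperm no member passed over 3 stages in CAP minus NME, where 13.6% of probe sets differed. By limma no member besides SESA5 had an unadjusted p under 0.05 there. With only the compared arrays 2 members passed, and the share of all probe sets in that refit is not given here. At 3 h alone SESA5 was lower in CAP than in NME, at 4.01 ± 0.36 and 5.29 ± 0.66, a difference of -1.27 ± 0.36 (limma adjusted p = 0.0155) that was lost without replicate 1 of CAP or replicate 4 of NME (adjusted p = 0.0695 and 0.120).

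No storage protein gene passed in any of the 4 rupture comparisons. These set seeds with ruptured against intact testa at 7 h, and with ruptured against intact endosperm at 16 h, in CAP and RAD. By limma 6.33% of all probe sets differed with testa rupture in CAP, 1.71% with testa rupture in RAD, 4.30% with endosperm rupture in CAP and 5.44% with endosperm rupture in RAD. None of the 7 members had an unadjusted limma p under 0.05 in any of them. The largest member difference was -0.44 ± 0.36 for SESA5 with testa rupture in RAD, with a 95% interval of -1.15 to 0.27. For CRA1 the difference with testa rupture was -0.30 in CAP, with a 95% interval of -0.77 to 0.17, and -0.22 in RAD, with a 95% interval of -0.69 to 0.25. In the 8 groups of these comparisons the highest member mean was 3.91, that of CRA1 in RAD at 7 h with intact testa, so most levels were under or near the brightness limit.

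In the dry seed, SESA5 was lower at the cotyledon end than at the radicle end, and CRA1 was bright at both. SESA5 read 3.60, 3.43 and 3.99 in DRYNMC, against 4.21, 5.33, 5.57 and 5.89 in DRYRC. The groups did not overlap, and the difference was -1.57 ± 0.38, or 2.98-fold (limma adjusted p = 0.00265). It was the 1 of 7 members lower at the cotyledon end, where 4.05% of all probe sets were lower. CRA1 read 7.47, 8.55 and 8.07 in DRYNMC, against 8.44, 8.56, 8.42 and 8.31 in DRYRC, a difference of -0.41 ± 0.26 that did not pass (limma adjusted p = 0.382). The 5 cotyledon markers measured, of 9 listed, summed to 22.6 to 23.2 in DRYNMC arrays, against 19.2 to 20.1 in DRYRC arrays. FIL averaged 5.76 in DRYNMC and 3.70 in DRYRC, and the part of the cut in the SESA5 difference was not tested.

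Of the 27 groups, whole dry seeds had the widest spread between arrays for CRB, CRC, SESA1, SESA3 and SESA5. SESA5 read 4.03, 7.86, 6.36 and 7.00 in the 4 DRY arrays, CRC read 4.70, 4.22, 7.20 and 6.21, and SESA1 read 4.36, 3.32, 6.01 and 6.37. CRB read 3.57, 3.50, 5.08 and 4.95, and SESA3 read 3.20, 3.64, 4.76 and 3.62. CRA1, at 7.80, 8.83, 8.44 and 7.95, varied more in RAD at 3 h than here, and SESA2 stayed between 3.05 and 3.30. Among the 13895 probe sets, the largest ranges over these 4 arrays were those of SESA5 (3.83), SESA1 (3.06) and CRC (2.99). The high arrays were not the same for all members: replicates 3 and 4 were high for CRB, CRC and SESA1, replicate 3 for SESA3, and replicates 2 to 4 for SESA5. Of the spread within all groups, the 4 DRY arrays held 62.6% for CRB, 61.4% for CRC, 57.5% for SESA1, 51.2% for SESA3 and 37.4% for SESA5, against a median of 3.50% over all probe sets. The common variance estimate of these members was raised by those arrays. Without them all 7 members passed in the RAD course instead of 4, and in NME minus COT 4 passed instead of 2. With all arrays, 41.8% of all probe sets passed in the RAD course and 44.7% in NME minus COT. The shares without the DRY arrays are not given here. In the RAD course CRB, SESA2 and SESA3 had means under the brightness limit at both times.

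**Figure D5:**
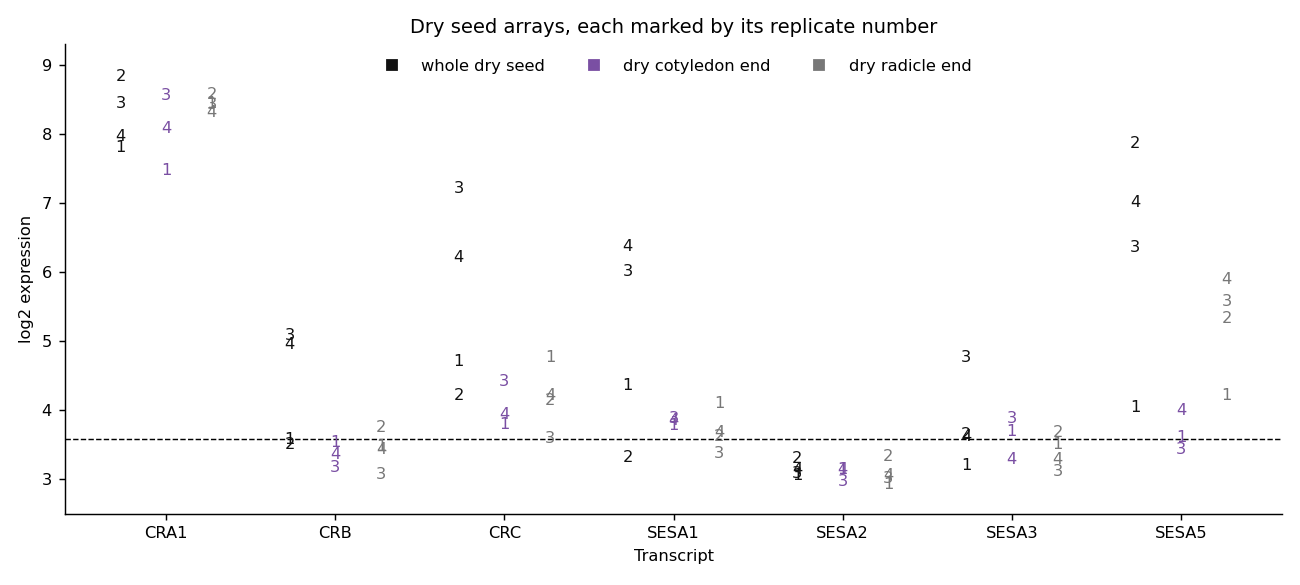
Log2 RMA level of each member in every dry seed array, in the groups DRY, DRYNMC and DRYRC; each digit is 1 array at its level and gives its replicate number, and the dashed line is the brightness limit. SESA5, CRC and SESA1 spread over 3.83, 2.99 and 3.06 log2 units in whole seeds, while CRA1 lies between 7.47 and 8.83 in all 3 groups.

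Several DRY arrays lay above both dry seed parts. For SESA5 and SESA1 3 of the 4 DRY arrays were above every DRYRC and DRYNMC array, for CRB and CRC 2, for CRA1 and SESA3 1, and for SESA2 0. Over all probe sets, 2.36% had 3 such arrays, 8.61% had 2, 22.6% had 1 and 66.0% had 0. Outside the whole dry seed, no CRC array exceeded 4.93, no SESA1 array 4.71 and no CRB array 3.75.

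The earliest sample of each tissue was set against the dry seed part that contains the tissue. CRA1 was lower in RAD at 1 h than in DRYRC, by -1.08 ± 0.24 (limma adjusted p = 0.00317), and it was the only one of 7 members to pass where 1.42% of probe sets were lower. CRA1 was lower in CAP at 1 h than in DRYRC, by -2.18 ± 0.24 (limma adjusted p = 3.49e-11), also 1 of 7, where 3.91% were lower. SESA5 did not pass in RAD (-0.10) or in CAP (-0.51, limma adjusted p = 0.443), and in CAP it passed with replicate 1 left out of all groups (-1.06, adjusted p = 0.0161). DRYRC holds radicle and cap together and DRYNMC holds non-micropylar endosperm and cotyledon tissue, so change over time and difference between tissues cannot be told apart in these comparisons. CRA1 in COT at 3 h differed from DRYNMC by -0.50, with a 95% interval of -1.01 to 0.01, and passed with replicate 1 left out of all groups (-0.84, adjusted p = 0.0301). CRA1 was lower in NME at 3 h, with 5.46, 3.97, 4.42 and 4.41 against 7.47, 8.55 and 8.07 in DRYNMC, a change of -3.46 ± 0.26 (limma adjusted p = 1.07e-20).

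Against DRYNMC, SESA5 was higher in both tissues at 3 h. It read 5.78, 6.09, 5.53 and 5.85 in COT at 3 h and 5.31, 5.42, 4.40 and 6.01 in NME at 3 h, against 3.60, 3.43 and 3.99 in DRYNMC. All imbibed arrays lay above all dry ones. The change was 2.14 ± 0.38, or 4.40-fold higher, in COT (limma adjusted p = 1.58e-05) and 1.61 ± 0.38, or 3.06-fold higher, in NME (limma adjusted p = 3.67e-04). It was the 1 member of 7 that rose, where 7.10% of probe sets rose in COT and 16.7% in NME. Members that fell against DRYNMC were SESA3 in COT (8.78% of probe sets fell) and CRA1, CRC and SESA3 in NME (21.6% fell). CRC fell by -0.70 ± 0.25 in NME (limma adjusted p = 0.0222), lost without replicate 3 of DRYNMC (adjusted p = 0.166). SESA3 changed by -0.47 ± 0.14 in COT and -0.34 ± 0.14 in NME (limma adjusted p = 0.0114 and 0.0460), and each call was lost with only the compared arrays (adjusted p = 0.138 and 0.149). Without replicate 3 of DRYNMC the adjusted p was 0.146 in COT and 0.325 in NME. Both comparisons share the DRYNMC arrays.

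Genes around the storage proteins were described from lists. Of 5 other storage globulin loci 3 were measured, and 2 of these fell in CAP and in RAD over the course. The vicilin-like PAP85 changed by -1.32 in CAP and -1.62 in RAD, and AT2G28490, a cupin protein related to vicilins, by -2.37 and -1.31. Of 8 listed oil body protein loci 5 were measured, and all 5 fell in all 4 tissues, where 23.5% of all probe sets fell in CAP, 23.3% in RAD, 12.5% in COT and 19.9% in NME; they coat the seed's lipid stores. The oleosin OLEO1 changed by -4.18 in CAP and -2.75 in RAD, OLEO5 by -3.15 and -2.58, OLEO4 by -2.62 and -2.01, and the caleosin CLO2 by -2.45 and -0.87. The median oil body change was -2.62 in CAP and -2.01 in RAD, beside the storage protein medians of -0.60 and -0.53.

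Of 13 loci for processing and vacuolar sorting 7 were measured, and 4 fell and 2 rose in both CAP and RAD. Among all probe sets 23.5% fell and 20.4% rose in CAP, as did 23.3% and 18.5% in RAD. ALPHA-VPE and BETA-VPE, vacuolar processing enzymes that cut storage proteins, changed by -1.45 and -1.26 in CAP and by -1.77 and -0.81 in RAD. The aspartic protease APA1 changed by -0.87 in CAP and -1.96 in RAD. The disulphide isomerase PDIL1-1, which folds proteins in the endoplasmic reticulum, rose by 2.05 in CAP and 1.07 in RAD. Of 10 mobilising proteases 9 were measured, and 4 rose in CAP and 5 in RAD with none falling. Rises were called for 20.4% of all probe sets in CAP and 18.5% in RAD. The cysteine proteases RDL1, RD21B and RD21A rose by 4.32, 3.17 and 2.51 in CAP and by 3.24, 3.65 and 1.19 in RAD. The cathepsin B-like CATHB3 rose by 1.64 in CAP and 0.75 in RAD. Over 3 to 13 h 4 of these 9 proteases rose in COT and 6 in NME, again with none falling, where 12.9% of all probe sets rose in COT and 19.4% in NME.

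Of 11 activators of storage protein genes 6 were measured, with 2 falling and 1 rising in CAP and 2 falling in RAD. The bZIP factor ABI5, a mediator of abscisic acid responses, changed by -1.56 in CAP and -0.62 in RAD, and its relative EEL by -1.23 and -1.53. BZIP25 rose by 0.32 in CAP and had 0.22 in RAD, which did not pass. All 8 listed repressors of the seed programme were measured, and 3 fell in CAP and 2 in RAD. The Polycomb methyltransferase SWN changed by -1.92 in CAP and -2.07 in RAD. VAL1, which silences maturation genes, changed by -0.90 in CAP and the deacetylase HDA19 by -0.62. The chromatin remodeller PKL changed by -0.40 in RAD. Of all probe sets, 23.5% fell and 20.4% rose in CAP, and 23.3% fell and 18.5% rose in RAD.

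The tissue labels were set against markers. EPR1, an endosperm extensin-like gene, averaged 4.94 to 9.42 over CAP stages and 6.11 to 8.08 in NME, against 3.87 to 4.57 in RAD and 3.90 to 4.21 in COT. EXPA2, an expansin of germinating endosperm, averaged 4.82 to 10.1 in CAP and 4.27 to 10.3 in NME, against at most 3.71 in the embryo tissues. At 1 h the 4 endosperm markers measured summed to 20.8 to 22.5 in CAP and 14.9 to 15.4 in RAD. In each tissue 3 of the 4 were over the brightness limit. FIL, a regulator of leaf polarity, averaged 5.10 to 6.48 in COT and at most 3.74 in CAP, NME and RAD. PIN2, a root auxin carrier, averaged 3.45 in RAD at 1 h and was highest in RAD, at up to 6.61. Of the other markers, YAB5 stayed under the limit in every group, as did KAN1 outside RAD. Of 6 seed coat markers 3 were measured, and they summed to 12.3 to 12.6 in CAP and 12.7 to 14.2 in RAD at 1 h. The 7 root and root cap markers measured, of 9 listed, summed to 24.3 to 27.5 in CAP and 26.5 to 29.6 in RAD at 3 h. At 1 h their sums were 25.9 to 27.3 in CAP and 26.4 to 27.8 in RAD. The CAP and RAD sums overlapped at 1 h and at 3 h. Between 1 h and intact 16 h in RAD, 3 of these 7 markers rose and 2 fell.

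The members' profiles over the 27 groups resembled each other to different degrees, given as Pearson r of group means. Every member but SESA5 had its highest mean in a dry seed group, and that difference from imbibed groups enters the r among them. Among the cruciferins r was 0.87 for CRA1 with CRC, 0.87 for CRB with CRC and 0.71 for CRA1 with CRB. Among the albumins SESA5 was the least alike, at 0.59 with SESA1, 0.62 with SESA2 and 0.67 with SESA3. Across the families CRC with SESA3 had the highest r, 0.90, and CRA1 with SESA5 had 0.77. By mean z-scored profile over 27 groups, the locus most like the cruciferins was AT2G27390 at r = 0.96 and the locus most like the albumins was AT1G23350 at r = 0.95. The files do not pair these codes with gene names.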

How the data were processed

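The deposited values are log2 expression per probe set, 1 table for all arrays. Per the submitters' processing notes, the authors used RMA and the affy package; versions and array design are not given in the sources used here. RMA equalises array distributions and compresses differences among dim probe sets. Groups came from the sample labels.

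One mean per group was fitted to all 27 groups with limma 3.58.1 in R 4.3.3 (empirical Bayes moderation, 80 residual degrees of freedom, 6.04 prior degrees of freedom). All comparisons were contrasts of this fit, with p-values adjusted over 13895 probe sets within each. On simulated data for the CAP course, 91% of probe sets changed by 1 log2 unit and 100% of those changed by 2 were recovered. The simulation changed few probe sets, in a single group, and gave each probe set the same spread in every group. In the data 43.8% of all probe sets were called in that comparison, and several members spread more in DRY. These rates therefore do not give the power for the members. The number of arrays limits precision; there are no counts.

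Members and gene lists were chosen with earlier results of these data known. Every measured member is named; listed genes are named where they pass in the CAP or RAD course, at most 4 per list by size of change. Gene symbols come from these lists. Alternatives were 3 other scalings, a trended robust moderation, a filter on dim probe sets, array weights, a replicate block, only the compared arrays, leaving out arrays and, chosen after seeing the data, leaving out the whole dry seed arrays.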

Additional observations from a re-analysis of the deposited data

Results flagged for a closer look

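Single arrays stood apart from the other 3 of their group in 16 of 182 member and group pairs by Dixon's test at the 95% level; chance flags about 1 in 20 groups. The widest gaps were in SESA5, where RAD at 5 h replicate 1 read 6.30, against 3.93 to 4.33 in the others, and COT at 7 h replicate 3 read 5.43, against 3.90 to 4.12. SESA5 was also apart at 3.45 in CAP at 7 h with intact testa, replicate 2, and at 3.21 in CAP at 10 h, replicate 2. CRC read 3.97 in replicate 4 of CAP at 3 h and 3.63 in replicate 1 of CAP at 5 h, each above the others. SESA1 read 3.91 in replicate 3 of RAD at 3 h and 4.27 in replicate 1 of RAD at 5 h, both high, and 3.20 in replicate 1 of NME at 3 h, which was low. Of those named so far, the SESA5 arrays in CAP and the SESA1 array in NME lay under the brightness limit. So did all the remaining ones. These were CRA1 at 3.47 in replicate 2 of RAD at 16 h with ruptured endosperm, CRB at 2.93 in replicate 3 of CAP at 3 h and at 3.21 in replicate 4 of COT at 13 h, and SESA2 at 3.10 in replicate 2 of CAP and 2.88 in replicate 1 of RAD at 7 h with intact testa. SESA3 completed them at 2.76 in replicate 4 of CAP at 7 h with ruptured testa and at 2.97 in replicate 1 of CAP at 16 h with ruptured endosperm.

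The change over time was tested for a difference between tissues in 5 comparisons of 7 members, and 6 of these 35 tests passed. The share of all probe sets that differed was 16.2% in the course difference of CAP and RAD; for the change between 1 h and 3 h it was 10.1% between CAP and RAD, and for that between 3 h and 7 h it was 17.9% between NME and COT, 1.97% between RAD and COT and 5.82% between CAP and RAD. For CRA1 the course from 1 h to intact 16 h differed by 1.02 between CAP and RAD (limma adjusted p = 0.0260). Its change between 3 h and 7 h differed by 2.07 between NME and COT (limma adjusted p = 1.82e-06) and by 1.72 between CAP and RAD (limma adjusted p = 2.79e-04). For SESA5 the change between 1 h and 3 h differed by -2.37 between CAP and RAD (limma adjusted p = 5.86e-04). Its change between 3 h and 7 h differed by -1.80 between RAD and COT (limma adjusted p = 0.0382) and by 2.42 between CAP and RAD (limma adjusted p = 7.19e-04). For CRA1 the change between 3 h and 7 h differed by 1.11 between RAD and COT and did not pass (limma adjusted p = 0.0599). All but the first were added after the levels were seen. Each of the 6, save that of SESA5 between 1 h and 3 h, has an end level under the brightness limit in at least 1 of its tissues, so its size is open to that floor.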

How the results depend on the processing

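No member result reversed under any alternative, and 359 of 420 member results never changed their call. Leaving out the whole dry seed arrays moved the number of members passing to 7 in the RAD course, 1 in CAP minus NME, 4 in NME minus COT and 2 in CAP at 1 h against DRYRC. With only the compared arrays it was 0 in the course difference, 2 in CAP minus NME, 4 in NME minus COT and 1 in COT at 3 h against DRYNMC; fewer samples enter those fits. Array weights gave 1 in CAP minus NME. The shares of all probe sets passing in these refits are not given here. Leaving out arrays gave 4 to 5 members in the CAP course, 3 to 6 in RAD, 0 to 1 in their difference, 2 to 3 in COT, 2 to 3 in NME, 0 in each rupture comparison, 3 to 4 in CAP minus RAD, 0 in CAP minus NME, 1 in RAD minus COT and 1 to 3 in NME minus COT. It gave 0 to 1 between dry seed ends, 1 for RAD and 1 to 2 for CAP at 1 h against DRYRC, 1 to 2 for COT and 2 to 4 for NME at 3 h against DRYNMC, and 11 to 15 successive steps. The dry seed difference in SESA5 was lost with replicate 3 left out of both ends. Because refits were limited, single arrays were left out in 95 fits, which spare COT and NME at 7 h and DRY, and a replicate number was left out of all groups in 4. Centring on the least variable probe sets changed the share of higher calls to 24.7% with testa rupture in RAD, against 37.1% as reported, and to 56.5% in COT at 3 h against DRYNMC, against 44.7%. Over 121 same-numbered pairs in 31 comparisons of 2 groups, tissues of the same stage included, the deviations from group means correlated at r = -0.364 to 0.578, with 25 pairs over 0.1; no comparison had every pair over 0.1, so the numbers were not taken to pair the samples; with the replicate as a fixed or random block the CAP course kept 5 and the RAD course 4 members, and the fixed block gave 3 in NME at 3 h against DRYNMC, against 4 without it. What depth cannot show here is change among members under the brightness limit of 3.59.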

Other observations

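Some oil body and globulin genes were also read in whole dry seeds. There SESA5 and SESA1 had the widest ranges of all 13895 probe sets, so every other gene varied less. Over the 4 DRY arrays, in order of replicate, OLEO1 read 6.62, 6.89, 6.47 and 6.12, OLEO4 read 7.39, 7.28, 7.65 and 7.66, and PAP85 read 6.14, 6.08, 6.73 and 6.64. OLEO5 read 7.57, 7.58, 6.74 and 6.54. In the same arrays SESA5 had the widest range of any probe set, 3.83. SESA5 also had the fourth widest range of all probe sets within RAD at 5 h, 2.37, through replicate 1.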
